A study of Mus musculus with 18 samples.

Results

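The genes described here flank Csnk2a2, the gene for the CK2α′ catalytic subunit of protein kinase CK2, which was knocked out on 1 chromosome in some of the mice of a study of the mouse striatum. Members were all genes of the deposited count table on chromosome 8 whose span reached into the 10 Mb on either side of Csnk2a2 (ENSMUSG00000046707, GRCm38 chr8:95446096-95490039, minus strand) and that had at least 1 read over the 18 libraries, Csnk2a2 itself left out. The window ran from 85446096 to 105490039 and held 376 genes of the table, of which 90 had no read. That left 285 members of the 37580 genes with a read, 171 on the side of the centromere (called proximal here), 112 on the other side (distal) and 2 inside the Csnk2a2 span. They comprised 132 protein-coding genes, 39 lincRNAs, 34 genes of the annotation class TEC (unspliced transcripts still to be experimentally verified), 30 processed pseudogenes, 21 antisense RNAs and smaller classes. Position and the presence of a read chose the members, and no difference between groups entered the choice.

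Striatal total RNA was sequenced from 18 mice of 12 to 14 months of age, each mouse giving 1 library. The 4 groups were WT mice (n = 5), zQ175 mice (n = 5), which carry an expanded CAG repeat knocked into the Huntingtin gene and model Huntington's disease, CK2a'(+/-) mice (n = 3), which lack 1 of their 2 Csnk2a2 alleles, and zQ175:CK2a'(+/-) mice (n = 5), which carry the repeat and lack the allele. The question asked of the genes near Csnk2a2 was whether they differed between the 8 mice with 1 allele, CK2a'(+/-) and zQ175:CK2a'(+/-), and the 10 mice with 2 alleles, WT and zQ175. The labels give C57BL/6 as the strain of every mouse. The study's methods add that the CK2α′ line came from a mixed 129/SvEv and C57BL/6J stock and that over 10 generations of crosses, to the C57BL/6J background, preceded the founders. DNA close to a targeted allele passes to offspring together with it, so loss of the allele, the changed locus itself and any 129/SvEv sequence that remained near it cannot be told apart in these mice. Whole tissue was sequenced, so fewer cells of a type and less RNA per cell cannot be told apart.

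Protein kinase CK2 is a tetramer of catalytic subunits (α, from Csnk2a1, and α′, from Csnk2a2) and regulatory β subunits, and it phosphorylates a wide range of proteins. CK2α′ is enriched in brain. Genes that lie near each other on a chromosome can share enhancers and chromatin domains, the best known case in this window being the interval of Fto and the Iroquois genes Irx3 and Irx5, where enhancers inside Fto introns act on Irx3 and Irx5 at a distance. The same stretch also holds the metallothionein cluster, most of the mouse carboxylesterases and the chemokine gene Cx3cl1.

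The libraries held 13612381 to 22702547 counted reads (median 18005044), and log-scale correlations within a group ran from 0.95 to 0.972. All were sequenced in 1 lane and the labels give no batch. Some libraries stood apart in RNA of neighbouring tissue. The summed level of 4 choroid plexus markers (Ttr, Folr1, Kl, Kcnj13) was 953 to 3039 CPM (read counts scaled to library size) in WT replicates 1 and 3, CK2a'(+/-) replicate 1 and zQ175:CK2a'(+/-) replicate 2, against at most 15.5 CPM in the other 14 libraries. Thalamic markers (4 genes) were highest in zQ175 replicate 1 (861 CPM, against 29.3 to 394 CPM elsewhere), and cortical excitatory markers (5 genes) in zQ175 replicate 5 (319 CPM, against 22.6 to 93.0 CPM elsewhere). All 5 cortical markers had an unadjusted p under 0.05 between mice with 1 and 2 alleles, as did 2 of 4 oligodendrocyte markers, and no marker of the striatal projection neuron, thalamic, choroid plexus, astrocyte, microglia or endothelial lists did. Every marker was detected in every group, including the 6 that define striatal projection neurons, whose sum was 673 to 1387 CPM in zQ175, 1129 to 1653 in zQ175:CK2a'(+/-), 1418 to 3123 in WT and 2151 to 3384 in CK2a'(+/-) mice. The female-specific RNA Xist exceeded 900 CPM in 5 of 8 mice with 1 allele and in 6 of 10 with 2. By group it did so in 4 of 5 WT, 1 of 3 CK2a'(+/-), 2 of 5 zQ175 and 4 of 5 zQ175:CK2a'(+/-) mice. Sex was thus not balanced within either allele comparison, and the imbalance ran in opposite directions.

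The members that the results turn on start at very different promoters. The sequences shown are 300 bases each, from 250 before to 50 after the start site (RefSeq, GRCm38.p6), 5′ to 3′ on the gene's own strand, with every CG in capitals, since clusters of CG mark promoters of the CpG island kind. They are Csnk2a2 as the targeted gene (chr8:95488771-95489070, minus strand), 4933406B17Rik as its nearest neighbour on the distal side (chr8:95496164-95496463, plus strand), and the members Crnde (chr8:92356071-92356370, minus strand) and Lpcat2 (chr8:92855083-92855382, plus strand).
Csnk2a2: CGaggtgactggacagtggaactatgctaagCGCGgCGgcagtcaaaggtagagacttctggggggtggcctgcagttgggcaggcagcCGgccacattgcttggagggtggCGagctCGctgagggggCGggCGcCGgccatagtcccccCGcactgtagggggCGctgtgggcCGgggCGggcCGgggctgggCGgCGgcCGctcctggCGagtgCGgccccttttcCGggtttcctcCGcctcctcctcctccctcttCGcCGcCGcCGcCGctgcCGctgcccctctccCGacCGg
4933406B17Rik: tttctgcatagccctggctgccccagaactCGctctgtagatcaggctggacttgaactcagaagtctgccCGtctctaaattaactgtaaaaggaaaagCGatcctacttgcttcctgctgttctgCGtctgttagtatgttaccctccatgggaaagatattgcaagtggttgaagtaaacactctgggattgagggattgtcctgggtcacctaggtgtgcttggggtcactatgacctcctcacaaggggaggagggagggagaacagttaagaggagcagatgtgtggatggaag
Crnde: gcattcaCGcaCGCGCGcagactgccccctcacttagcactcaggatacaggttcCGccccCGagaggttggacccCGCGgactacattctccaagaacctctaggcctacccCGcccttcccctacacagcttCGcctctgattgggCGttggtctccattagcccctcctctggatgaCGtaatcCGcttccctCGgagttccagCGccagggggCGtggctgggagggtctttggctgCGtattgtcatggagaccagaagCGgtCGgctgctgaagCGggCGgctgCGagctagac
Lpcat2: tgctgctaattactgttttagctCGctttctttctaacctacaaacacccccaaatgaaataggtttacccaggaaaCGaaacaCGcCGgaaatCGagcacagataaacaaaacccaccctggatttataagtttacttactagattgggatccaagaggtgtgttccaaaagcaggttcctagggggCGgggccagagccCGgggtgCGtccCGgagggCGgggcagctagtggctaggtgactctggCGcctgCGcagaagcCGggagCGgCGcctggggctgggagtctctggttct

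Csnk2a2 held 30 CG in these 300 bases and Crnde 22, whereas 4933406B17Rik held 4 and Lpcat2 15; the median over the 32851 promoters of the table was 7. Thus 11.7% of all promoters had as many CG as Csnk2a2 or more, and 38.0% had as few as 4933406B17Rik or fewer. Searched on both strands, the letters TATAAA occurred in Lpcat2 and the letters CCAAT in Crnde and Lpcat2, whereas 13.6% of all promoters held the first motif and 37.4% the second. The start sites of Csnk2a2 and 4933406B17Rik were 7594 bases apart on opposite strands, pointing away from each other. A promoter was listed for 122 of the 285 members.

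The targeted gene followed the labels. With 2 alleles Csnk2a2 was 31.6 ± 2.26 CPM (SD, n = 5) in WT and 35.0 ± 2.29 CPM (SD, n = 5) in zQ175 mice. With 1 allele it was 16.7 ± 1.78 CPM (SD, n = 3) in CK2a'(+/-) and 17.6 ± 1.64 CPM (SD, n = 5) in zQ175:CK2a'(+/-) mice. The log2 fold change of 1 against 2 alleles was -0.95 (SE 0.073, adjusted p = 2.8e-07), a ratio of 0.516. Adjusted p-values here and below come from edgeR's quasi-likelihood test with Benjamini-Hochberg adjustment over all 20914 genes tested, and a gene was called at a false discovery rate (FDR) under 0.1.

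Of the 285 members, 168 passed the filter on low counts and were tested. A neighbouring noncoding RNA, 4933406B17Rik, was called higher in mice with 1 allele, and the noncoding RNA Crnde and the lipid enzyme gene Lpcat2 were called lower. The call of Crnde came from the 3 CK2a'(+/-) mice, since all 5 zQ175:CK2a'(+/-) mice (2.30 to 4.30 CPM) lay above all 5 WT mice (at most 2.18 CPM). WT replicates 4 and 5 differed from WT replicates 1 to 3 and from the CK2a'(+/-) mice in striatal projection neuron markers. They were left out by a cut on the cortical marker Neurod2 that was chosen after seeing the data. The log2 fold change of Crnde with 1 against 2 alleles was then -1.38 (adjusted p = 0.299), against -1.71 over all mice (adjusted p = 0.0907). Since these were the WT mice highest in Crnde, leaving them out was bound to shrink the difference, and the fit cannot decide the part of cell makeup. The call of 4933406B17Rik was firm, and the others, each with an adjusted p of 0.0907, were lost when most single libraries were left out. These 3 calls made up 1.79% of tested members, whereas 0.0335% of all genes tested were called (7 genes, Csnk2a2 among them). DESeq2 called 5 members, the same 3 with Gm45640 and Gm45853, or 2.42% of the 207 members it tested, against 0.0916% of all genes (24 genes). At an unadjusted p under 0.05 there were 19 members (11.3%), 8 higher and 11 lower, against 5.31% of all genes. Plekhg4, one of the 8 higher, ranged from 1.32 to 8.21 CPM with 1 allele and from 0.914 to 6.26 CPM with 2. In 3 members, Fto, Lpcat2 and 4933406B17Rik, all 8 mice with 1 allele lay on one side of all 10 mice with 2, which is 1.79% of tested members against 0.0191% of all genes. The 4 genes of the whole table with this separation were those 3 and Csnk2a2. The members as a whole did not shift to one side, with 82 higher, 86 lower and a median log2 fold change of -0.01, the same as over all genes (-0.01).

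**Figure D1:**
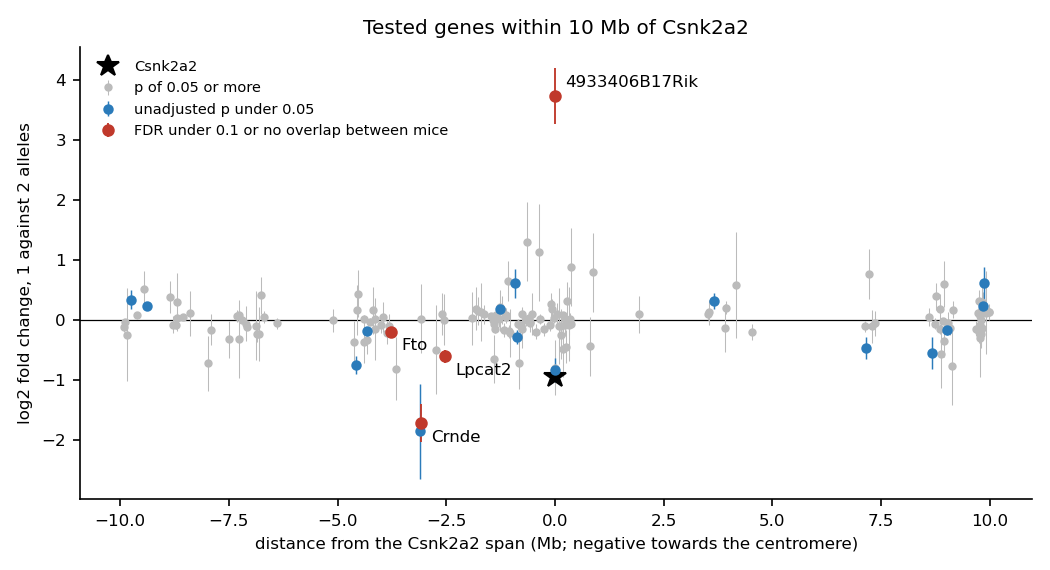
Log2 fold change of 1 against 2 CK2α′ alleles (vertical axis, with SE bars) for the 168 tested members against their distance from the Csnk2a2 span in Mb, with Csnk2a2 as a star. 4933406B17Rik stands alone at 3.74 next to the gene, and Fto, Crnde and Lpcat2 lie below 0 between 2.5 and 5 Mb on the proximal side.

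4933406B17Rik (ENSMUSG00000110427, chr8:95496430-95503718, plus strand), a lincRNA, starts 6391 bases beyond the Csnk2a2 span and overlaps no other gene with a read. Its raw counts in WT mice were 11, 2, 4, 0 and 6, and in zQ175 mice 5, 0, 6, 0 and 6. In CK2a'(+/-) mice they were 63, 96 and 44, and in zQ175:CK2a'(+/-) mice 23, 50, 42, 49 and 42. Every mouse with 1 allele thus had more reads than every mouse with 2, and the lowest of the former (1.29 CPM) was above the highest of the latter (0.548 CPM). Mean levels with 2 alleles were 0.242 ± 0.207 CPM (SD, n = 5) in WT and 0.185 ± 0.176 CPM (SD, n = 5) in zQ175 mice. Mean levels with 1 were 3.44 ± 0.67 CPM (SD, n = 3) in CK2a'(+/-) and 2.52 ± 0.815 CPM (SD, n = 5) in zQ175:CK2a'(+/-) mice. The log2 fold change of 1 against 2 alleles was 3.74 (SE 0.469, 95% interval 2.77 to 4.72, adjusted p = 0.000837). It was 3.81 (SE 0.672, adjusted p = 0.0872) between CK2a'(+/-) and WT and 3.68 (SE 0.653, adjusted p = 0.0916) between zQ175:CK2a'(+/-) and zQ175 mice, comparisons that share no mouse, and the difference between them had an unadjusted p of 0.908. Over all 18 mice it stayed called in each of the 18 fits that left out 1 library (log2 fold change 3.57 to 4.03, adjusted p 0.00046 to 0.00557). The calls within the smaller comparisons were less firm and held in 6 of 18 such fits for CK2a'(+/-) against WT and in 3 of 18 for zQ175:CK2a'(+/-) against zQ175. Without WT replicates 4 and 5, which differed from the other WT mice in neuronal markers, 4933406B17Rik was still called over the remaining mice (adjusted p = 0.00266) but not between CK2a'(+/-) and WT (3.42, SE 0.698, adjusted p = 0.517). Even with 1 allele its level was low, and its mean over the 18 mice was 0.321 RPKM (reads scaled to exon length and library size), against 2.74 RPKM for Csnk2a2.

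**Figure D2:**
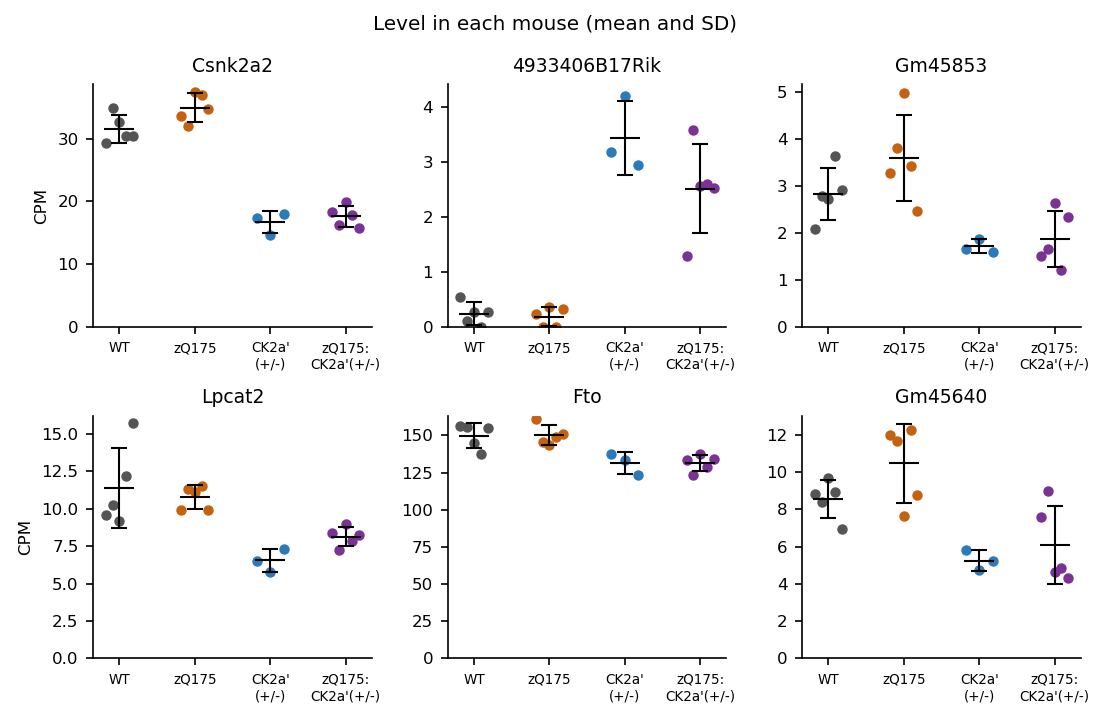
CPM in each mouse (points) with the group mean and SD (bars) for Csnk2a2 and 5 members, by group. Csnk2a2, Lpcat2 and Fto are lower and 4933406B17Rik is higher in every mouse with 1 allele than in every mouse with 2, whereas the groups overlap in Gm45853 and Gm45640.

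Crnde (ENSMUSG00000031736, chr8:92326033-92356120, minus strand), a noncoding RNA gene next to Irx5, lies 3.09 Mb from Csnk2a2 on the proximal side. It was called lower in CK2a'(+/-) than in WT mice and was not called between zQ175:CK2a'(+/-) and zQ175 mice. Its raw counts were 20, 19, 8, 46 and 47 in WT mice and 3, 3 and 1 in CK2a'(+/-) mice, so the CK2a'(+/-) mice lay below every other mouse of the study. In zQ175 mice they were 39, 48, 55, 58 and 49, and in zQ175:CK2a'(+/-) mice 47, 32, 40, 81 and 48, and these ranges overlapped. The log2 fold change between CK2a'(+/-) and WT mice was -3.45 (SE 0.54, 95% interval -4.57 to -2.33, adjusted p = 0.025), from 1.36 ± 0.711 CPM (SD, n = 5) to 0.117 ± 0.0443 CPM (SD, n = 3). Between zQ175:CK2a'(+/-) and zQ175 mice it was 0.02 (SE 0.327, 95% interval -0.66 to 0.7, unadjusted p = 0.953). The interaction, the difference between the 2 log2 fold changes, was 3.47 (SE 0.632, unadjusted p = 1.85e-05) and had an adjusted p of 0.194, above the threshold. DESeq2 gave the interaction an adjusted p of 0.0121, and it called 19 genes of the whole table (0.103%) for the interaction. Over all 18 mice Crnde was called at -1.71 (SE 0.316, adjusted p = 0.0907), but this call held in only 3 of the 18 fits that left out 1 library, those without WT replicate 1, WT replicate 3 or zQ175 replicate 1 (adjusted p 0.025 to 0.602 over the 18). The call between CK2a'(+/-) and WT held in 15 of the 18 and was lost without any of the 3 CK2a'(+/-) mice, when that group had 2 mice left.

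Low Crnde occurred in mice with and without choroid plexus RNA. The CK2a'(+/-) mice, all low in Crnde, had choroid plexus marker sums of 953, 9.36 and 7.74 CPM and thalamic marker sums of 262, 394 and 29.3 CPM. With the 4 libraries high in choroid plexus markers left out, an alternative chosen after seeing the data, Crnde was -4.0 (SE 0.614, adjusted p = 0.0557) between CK2a'(+/-) and WT mice. WT replicates 1 to 3 had fewer reads of Crnde than WT replicates 4 and 5, and of these 5 mice replicates 1 and 3 were among the 4 libraries.

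Libraries high in striatal projection neuron markers were low in Crnde, and the cortical marker Neurod2 was low in the same libraries. The sum of the 6 striatal projection neuron markers was 2459, 3123 and 2217 CPM in WT replicates 1 to 3 and 2168, 2151 and 3384 CPM in the CK2a'(+/-) mice. It was 1418 and 1491 CPM in WT replicates 4 and 5 and at most 1653 CPM in the 10 zQ175 and zQ175:CK2a'(+/-) mice. The 6 libraries with the highest sums were thus the 6 with the lowest Crnde. Neurod2, a transcription factor gene of cortical excitatory neurons, was 0.448, 1.73 and 1.09 CPM in WT replicates 1 to 3, 0.808, 1.05 and 1.33 CPM in the CK2a'(+/-) mice, and 4.41 to 42.5 CPM in all other mice (9.77 and 9.22 CPM in WT replicates 4 and 5). This marker was singled out after its values were seen. The sum of all 5 cortical markers did not separate the same libraries, at 22.6, 51.0 and 37.2 CPM in WT replicates 1 to 3, 55.4 and 45.6 CPM in WT replicates 4 and 5, and 22.96 to 61.1 CPM in the CK2a'(+/-) mice. WT replicates 4 and 5, the WT mice highest in Crnde, were left out in an alternative again chosen after seeing the data. The 3 WT mice left (0.545 to 1.06 CPM of Crnde) still lay above the 3 CK2a'(+/-) mice (0.0667 to 0.152 CPM). The log2 fold change was then -2.79 (SE 0.504, unadjusted p = 2.45e-05, adjusted p = 0.252) and Crnde was no longer called, nor was it over the remaining 16 mice (-1.38, SE 0.29, adjusted p = 0.299). The part of cell makeup in the level of Crnde was not tested.

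The neighbours of Crnde varied widely between mice of a group. Gm21817 (chr8:92336668-92339250), a lincRNA inside a Crnde intron on the same strand that shares no exon base with it, had 0, 0, 1, 43 and 20 reads in WT and 2, 2 and 0 in CK2a'(+/-) mice. Its log2 fold change of 1 against 2 alleles was -1.85 (SE 0.79, unadjusted p = 0.0292, adjusted p = 0.931), and it turned to 0.405 (SE 0.647) without WT replicates 4 and 5. Irx5 and Irx3, which encode homeodomain transcription factors of development, had log2 fold changes of 0.03 (SE 0.576) and -0.81 (SE 0.521), and their groups overlapped. Irx3 had -1.58 (SE 0.692, unadjusted p = 0.0328) between zQ175:CK2a'(+/-) and zQ175 mice. Its level was 3.56 and 3.01 CPM in zQ175 replicates 1 and 3 and 0.330 to 0.645 CPM in the other zQ175 mice. In zQ175:CK2a'(+/-) mice it was 0.265 to 0.790 CPM. Replicates 1 and 3 had the highest thalamic marker sums of the zQ175 mice (861 and 277 CPM). Irx5 ranged from 0 to 3.61 CPM with 1 allele and from 0.168 to 3.19 CPM with 2, and Irx3 from 0.265 to 1.41 CPM and from 0.223 to 3.56 CPM.

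**Figure D3:**
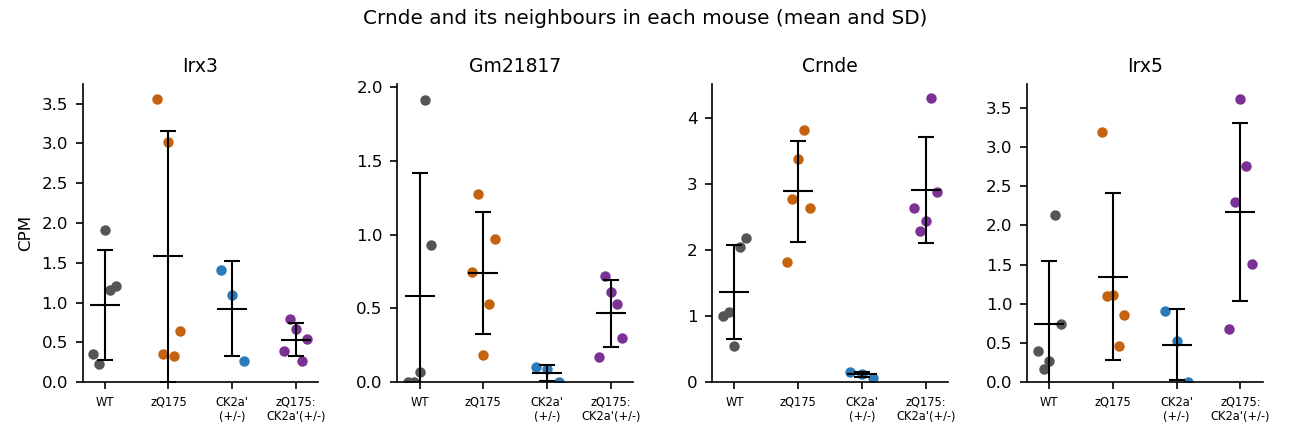
CPM of Irx3, Gm21817, Crnde and Irx5 in each mouse (points) with the group mean and SD (bars). Crnde lies near 0 in the 3 CK2a'(+/-) mice alone, between 0.0667 and 0.152 CPM, while Irx3 and Irx5 overlap between all groups.

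Lpcat2 (ENSMUSG00000033192, chr8:92855339-92919279, plus strand) encodes a lysophosphatidylcholine acyltransferase that makes membrane phospholipids and platelet-activating factor. It lies 2.53 Mb from Csnk2a2 on the proximal side and was lower in mice with 1 allele. In WT mice it was 9.57, 10.2, 9.19, 12.2 and 15.7 CPM, and in zQ175 mice 9.89, 11.4, 11.1, 11.5 and 9.89 CPM. In CK2a'(+/-) mice it was 6.51, 5.78 and 7.34 CPM, and in zQ175:CK2a'(+/-) mice 8.39, 7.25, 9.0, 7.86 and 8.23 CPM. The highest mouse with 1 allele, at 9.0 CPM, thus lay just under the lowest with 2, at 9.19 CPM. The log2 fold change was -0.60 (SE 0.113, adjusted p = 0.0907), a ratio of 0.659. It was -0.80 (SE 0.174, adjusted p = 0.482) between CK2a'(+/-) and WT and -0.40 (SE 0.147, adjusted p = 0.642) between zQ175:CK2a'(+/-) and zQ175 mice, neither of them called by edgeR, while DESeq2 called the first (adjusted p = 0.0657). The call over all mice held in 2 of the 18 fits that left out 1 library, those without WT replicate 1 or WT replicate 3 (log2 fold change -0.65 to -0.53, adjusted p 0.0765 to 0.747 over the 18). Without WT replicates 4 and 5, the highest WT mice, it was -0.48 (SE 0.0997, adjusted p = 0.299). An antisense gene, Gm45472, covers 8.47% of its exon bases and had 29 reads in all libraries together. Microglia markers (4 genes), from cells in which Lpcat2 is known to be active, summed to 97.2 to 122 CPM in mice with 1 allele and 91.7 to 130 CPM with 2.

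Fto (ENSMUSG00000055932, chr8:91313525-91668439, plus strand) encodes a demethylase of N6-methyladenosine in RNA and lies 3.78 Mb from Csnk2a2. It was separated between the allele groups by a small margin and was not called. It was 157, 155, 145, 137 and 155 CPM in WT mice, 161, 146, 144, 149 and 151 CPM in zQ175 mice, 137, 133 and 123 CPM in CK2a'(+/-) mice and 133, 123, 137, 128 and 134 CPM in zQ175:CK2a'(+/-) mice. The highest mouse with 1 allele had 137.285 CPM and the lowest with 2 had 137.335 CPM, so that the gap was far smaller than the spread within any group. The log2 fold change was -0.19 (SE 0.0484, unadjusted p = 0.000716, adjusted p = 0.612), and it was -0.19 in each of the comparisons without and with the zQ175 allele (SE 0.0733 and 0.0632). With DESeq2 size factors in place of edgeR's scaling, the groups overlapped in Fto and the members without overlap were 2, Lpcat2 and 4933406B17Rik.

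Some unspliced transcripts inside introns also had low values in mice with 1 allele, and the edgeR fit reported here called none of those named. Gm45853 (chr8:95480453-95483623) lies within a Csnk2a2 intron on the same strand and shares no exon base with it. It was 3.10 CPM at the median of mice with 2 alleles (2.09 to 4.98) and 1.66 CPM with 1 (1.22 to 2.63), and its log2 fold change of -0.83 (SE 0.2, adjusted p = 0.598) was near that of its host. Gm45854, in the same gene on the opposite strand, had -0.79 (SE 0.462, unadjusted p = 0.101). Gm45640 (chr8:90876581-90878476) lies in an intron of Chd9, the gene for a chromatin remodeller, 4.57 Mb from Csnk2a2 and on the strand of Chd9. It was 8.82, 8.38, 9.67, 8.93 and 6.95 CPM in WT, 12.0, 11.6, 7.63, 12.3 and 8.76 CPM in zQ175, 5.81, 4.73 and 5.21 CPM in CK2a'(+/-) and 7.60, 8.97, 4.65, 4.83 and 4.33 CPM in zQ175:CK2a'(+/-) mice. Its log2 fold change was -0.75 (SE 0.154, adjusted p = 0.203), whereas that of its host Chd9 was 0.03 (SE 0.0626), a value that changed sign without CK2a'(+/-) replicate 2. DESeq2 called both Gm45853 and Gm45640, and edgeR called Gm45640 with no filter on low counts or without zQ175:CK2a'(+/-) replicate 2. Gm45257, in an intron of Cdh11, had -0.46 (SE 0.191, adjusted p = 0.931). Whether the counting used the strand of the reads is not given in the sources used here, so reads of a gene and of an RNA inside it may not be fully separated.

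None of the protein-coding genes nearest to Csnk2a2 was called. Cfap20, a ciliary protein gene 0.0112 Mb away, was 36.9 ± 3.40 CPM (SD, n = 5) in WT and 38.0 ± 2.45 CPM (SD, n = 3) in CK2a'(+/-) mice, and its log2 fold change of 1 against 2 alleles was 0.03 (SE 0.0726). Ccdc113, a ciliary gene that starts 0.044 Mb away on the other side of 4933406B17Rik, had 0.11 (SE 0.188). Mmp15, a membrane-bound matrix metalloproteinase gene, had 0.19 (SE 0.172), Usb1, for an exonuclease that trims U6 RNA, 0.26 (SE 0.192), and the zinc finger gene Zfp319 -0.08 (SE 0.0989). The pseudogene Gm5912 and the lincRNA Gm45702 had -0.10 (SE 0.632) and -0.25 (SE 0.4) at under 1.5 CPM in every mouse, a level too low to show a small difference. None of these 7 genes had an unadjusted p under 0.05.

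Members with an unadjusted p under 0.05 were not densest next to Csnk2a2. They made up 9.30% of the 43 tested members within 1 Mb (4 genes), 4.35% of the 23 from 1 to 2.5 Mb (1 gene), 21.9% of the 32 from 2.5 to 5 Mb (7 genes) and 10% of the 70 from 5 to 10 Mb (7 genes). The share over the 909 other tested genes of chromosome 8 was 5.06% and over all genes 5.31%. The bin from 2.5 to 5 Mb held both members called lower, and 6 of its 7 genes were among its 25 members on the proximal side. The median absolute log2 fold change was 0.107 within 1 Mb, 0.139 from 1 to 2.5 Mb, 0.181 from 2.5 to 5 Mb and 0.151 from 5 to 10 Mb. It was 0.149 over all members, against 0.103 over the rest of chromosome 8 and 0.11 over all genes. Part of the members overlap each other, 145 of 285 overlapping another gene with a read, and of the 72 tested members that overlap none, 5 (6.94%) had an unadjusted p under 0.05 and 1 was called. Neighbouring genes are not independent of each other, so these shares are given without a test.

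**Figure D4:**
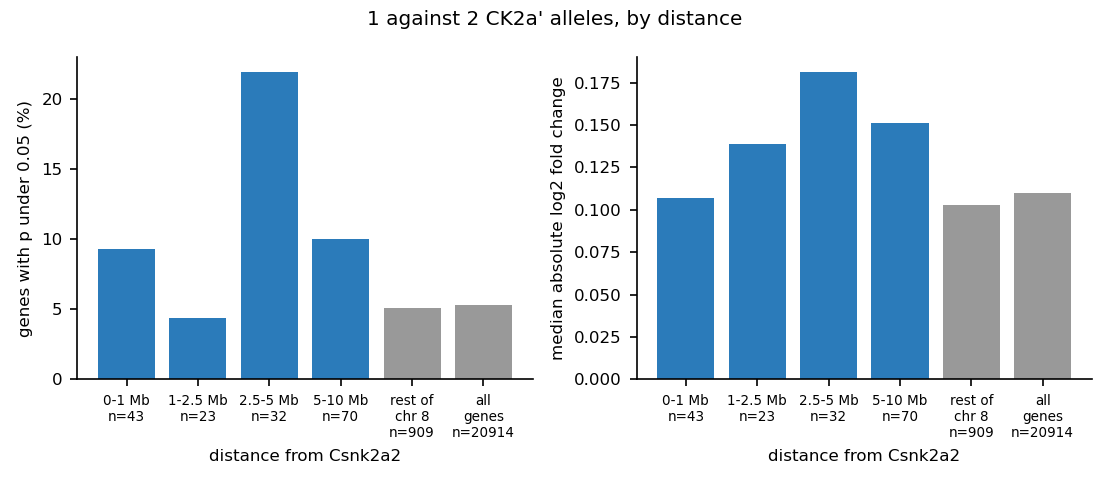
Share of tested genes with an unadjusted p under 0.05 (left, percent) and median absolute log2 fold change (right) between mice with 1 and 2 CK2α′ alleles, by distance from Csnk2a2, beside the rest of chromosome 8 and all genes. The bin from 2.5 to 5 Mb is highest in both, at 21.9% and 0.181.

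The loss of the allele was measured once without and once with the zQ175 allele, in comparisons that share no mouse. Between CK2a'(+/-) and WT mice 2 members were called, Crnde and 4933406B17Rik (1.19% of tested members, against 0.0143% of all genes), and 14 (8.33%) had an unadjusted p under 0.05, against 4.48% of all genes. Between zQ175:CK2a'(+/-) and zQ175 mice 1 member was called, 4933406B17Rik (0.595%, against 0.0143% of all genes), and 20 (11.9%) had an unadjusted p under 0.05, against 6.27% of all genes. DESeq2 called 3 members in the first comparison, Lpcat2 being the third (1.06% of 284 members, against 0.0293% of all genes), and 2 in the second, 4933406B17Rik and Gm45640 (0.962% of 208, against 0.145%). When only the 2 groups compared entered the edgeR fit, no member was called in either comparison. An unadjusted p under 0.05 was then found in 9 of 160 tested members (5.62%, against 3.72% of all genes) in the first and in 20 of 156 (12.8%, against 6.56%) in the second. In 6 members (3.57%, against 0.201% of all genes) the unadjusted p was under 0.05 in both comparisons with the same direction. These were Phkb, Gm45640, Fto, Lpcat2, Gm45853 and 4933406B17Rik. Phkb, the gene for a regulatory subunit of phosphorylase kinase in glycogen breakdown, lies 9.38 Mb away and had log2 fold changes of 0.19 (unadjusted p = 0.0399) and 0.27 (unadjusted p = 0.00223). With 2 alleles it ranged from 32.3 to 41.7 CPM and with 1 from 40.6 to 48.7 CPM, and over all mice its log2 fold change was 0.23 (SE 0.0591, unadjusted p = 0.00074).

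Across the 168 members, the log2 fold changes of the 2 comparisons had the same sign in 91 (54.2%, against 49.8% of all genes) and a Pearson correlation of 0.282, against -0.0358 across all genes. The correlation rested on 4933406B17Rik: it was 0.0588 over the other 167 members and -0.0163 over the 100 proximal members. Of the 14 members with an unadjusted p under 0.05 without zQ175, 9 had the same sign with it (64.3%, against 51.0% of all such genes), and of the 20 with zQ175, 14 had the same sign without it (70.0%, against 48.0%). Of the 72 members that overlap no other gene, 30 (41.7%) had the same sign in both. These are descriptions across genes, which are not independent replicates.

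**Figure D5:**
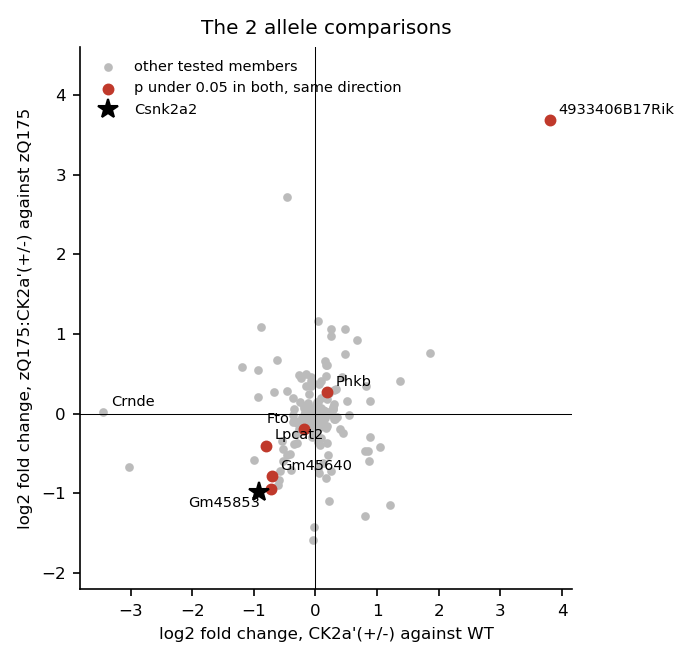
Log2 fold change of each tested member between CK2a'(+/-) and WT mice (horizontal) and between zQ175:CK2a'(+/-) and zQ175 mice (vertical), with Csnk2a2 as a star. The 6 members in red have an unadjusted p under 0.05 and the same direction in both, and Crnde lies at -3.45 and 0.02.

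The interaction tests whether a gene's difference by allele number differed between mice with and without zQ175. No member was called by edgeR, 1 gene of the whole table was (0.00478%), and 10 members (5.95%) had an unadjusted p under 0.05, against 5.39% of all genes. DESeq2 called 1 of 152 members, Crnde (0.658%, against 0.103% of all genes). Tradd, for an adaptor of tumour necrosis factor receptors 9.77 Mb away, came next to Crnde in size of evidence, with log2 fold changes of -0.94 (unadjusted p = 0.00321) without zQ175 and 0.55 (unadjusted p = 0.0296) with it, and an unadjusted p of 0.000572 for their difference. It was picked out after its values were seen.

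By role, none of the 11 lists of members held a gene called over all 18 mice or in either comparison. The lists held 86 of the 285 members, and the 3 called members, 4933406B17Rik, Crnde and Lpcat2, were in none of them. Of the 67 listed members that were tested, 7 (10.4%) had an unadjusted p under 0.05 between 1 and 2 alleles, 4 higher and 3 lower, against 5.31% of all genes. Between CK2a'(+/-) and WT mice there were 6 (8.96%, against 4.48% of all genes) and between zQ175:CK2a'(+/-) and zQ175 mice 9 (13.4%, against 6.27%). The values and counts that follow are of 1 against 2 alleles over all mice unless another comparison is named. Among metallothioneins, small proteins that bind zinc and copper, the 3 tested of 4 (Mt1, Mt2 and Mt3) all had values above 0, and only Mt1 had an unadjusted p under 0.05, with 0.19 (SE 0.0895, unadjusted p = 0.0486). Mt2 had 0.22 (SE 0.119), with 0.37 (SE 0.157, unadjusted p = 0.0274, adjusted p = 0.721) between zQ175:CK2a'(+/-) and zQ175 and 0.06 (SE 0.178) between CK2a'(+/-) and WT mice. Mt3, the brain form, had 0.02 (SE 0.127), a value that fell below 0 when some single libraries were left out. An antisense gene, Gm45774, covers 73.5% of the exon bases of Mt2. Per kilobase Mt1 was at 116, Mt2 at 72.9 and Mt3 at 61.6 RPKM. Mt1 was 160 ± 28.0 CPM (SD, n = 5) in WT, 117 ± 11.9 (SD, n = 5) in zQ175, 183 ± 31.2 (SD, n = 3) in CK2a'(+/-) and 133 ± 15.5 CPM (SD, n = 5) in zQ175:CK2a'(+/-) mice, with wide overlap. Of the 11 carboxylesterases with a read, enzymes of lipid and drug breakdown made mainly in liver, only Ces5a was tested, at 0.03 (SE 0.445).

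The list for the interval of Fto and the Iroquois genes had 7 of 8 genes tested, 2 with an unadjusted p under 0.05, both lower. It left out most genes of that stretch, Crnde among them. Counted whole, from Chd9 to Irx6, the stretch held 37 members, of which 20 were tested, 13 with values below 0 and 7 above. Of these 1 was called, Crnde (5%, against 0.0335% of all genes), and 5 had an unadjusted p under 0.05, all lower (25%, against 5.31% of all genes). They were Gm45640, Rbl2, Fto, Crnde and Gm21817. The 2 on the list were Fto and Rbl2, for a pocket protein that restrains the cell cycle, at -0.17 (SE 0.065, unadjusted p = 0.0156). Aktip, whose exons share 9.84% of their bases with Rbl2, had -0.02 (SE 0.056). Of the 10 tested genes of neuronal synapses and signalling, of 12 with a read, 3 had an unadjusted p under 0.05 (against 5.31% of all genes). Neto2, for an auxiliary subunit of kainate receptors, had 0.34 (SE 0.157, unadjusted p = 0.0414). Phkb had the values given above, and Bean1, a membrane protein gene expressed in brain, had -0.55 (SE 0.265, unadjusted p = 0.0494). Neto2 ran with the striatal projection neuron markers. It was 109, 174 and 97.2 CPM in WT replicates 1 to 3, 68.4 and 54.3 CPM in WT replicates 4 and 5, 148, 129 and 155 CPM in CK2a'(+/-) mice, and 60.7 to 95.03 CPM in the 10 mice with zQ175. The striatal marker Penk was 917, 1214 and 795 CPM, then 496 and 491 CPM, then 838, 799 and 1300.2 CPM in the same libraries, and 229 to 582 CPM in the mice with zQ175. Without WT replicates 4 and 5, Neto2 had 0.18 (SE 0.116, unadjusted p = 0.144), and the part of cell makeup in its level was not tested. Gnao1, for the most abundant G protein α subunit of brain, had 0.07 (SE 0.0554), and Ndrg4, a neuronal gene and the highest of the list at 173 RPKM, had 0.08 (SE 0.0515). Pllp, for the myelin protein plasmolipin, had 0.10 (SE 0.121), with 0.34 (SE 0.159, unadjusted p = 0.0431) between zQ175:CK2a'(+/-) and zQ175 and -0.15 (SE 0.183) between CK2a'(+/-) and WT mice. The oligodendrocyte marker sum was 3149 to 4818 CPM in zQ175 and 3607 to 4914 CPM in zQ175:CK2a'(+/-) mice. Of the zQ175 mice, replicate 4 was highest in both Pllp (49.9 CPM) and this sum. The part of cell makeup in the level of Pllp was not tested. Cbln1, for a secreted organizer of synapses, had -1.42 (SE 0.584, unadjusted p = 0.0244) and -0.02 (SE 0.679) in the same comparisons. The first value rested on zQ175 replicate 1, the library highest in thalamic markers. Raw counts of Cbln1 were 315, 17, 26, 22 and 26 in zQ175 replicates 1 to 5. In zQ175:CK2a'(+/-) mice they were 25, 31, 31, 22 and 16. The part of neighbouring tissue in the level of Cbln1 was not tested.

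Of the 8 innate immune regulators, all tested, 1 had an unadjusted p under 0.05 (against 5.31% of all genes). This was Nlrc5, which drives genes of the major histocompatibility complex class I, at 0.62 (SE 0.244, unadjusted p = 0.0191). Cyld, a deubiquitinase that restrains NF-κB signalling, had 0.05 (SE 0.102), N4bp1 0.05 (SE 0.054), Brd7 -0.11 (SE 0.0557) and Nol3, which shares 48.2% of its exon bases with an antisense gene, -0.08 (SE 0.111). No gene had an unadjusted p under 0.05 among the 5 tested of 7 chemokine and CMTM genes, the 3 tested of 4 cadherins, the 1 tested of 3 adhesion G protein-coupled receptors, the 7 mitochondrial and peroxisomal enzymes, the 13 genes of RNA processing and transcription or the 9 of cytoskeleton, motors and cilia. Between zQ175:CK2a'(+/-) and zQ175 mice the ciliary gene Drc7 of the last list had 2.72 (SE 1.15, unadjusted p = 0.0276). Drc7 was 24.9 CPM in zQ175:CK2a'(+/-) replicate 2, the library highest in choroid plexus markers, and 0.361 to 1.96 CPM in the rest of that group. In zQ175 mice it was 0 to 2.26 CPM. WT replicates 1 and 3 and CK2a'(+/-) replicate 1, also high in these markers, had 15.0, 8.78 and 9.70 CPM. Cx3cl1, the neuronal ligand of the microglial receptor Cx3cr1, was at -0.0033 (SE 0.0857), and Cdh8, a neuronal cadherin, at 0.10 (SE 0.091). Adgrg1, a receptor of neural progenitors and glia, had -0.19 (SE 0.126), Got2, the mitochondrial aspartate aminotransferase, -0.06 (SE 0.0536), Cnot1, the scaffold of the deadenylase complex, 0.02 (SE 0.0491), and Dync1li2, a dynein chain, -0.01 (SE 0.0457). For genes at such levels the SE of a log2 fold change was 0.05 to 0.13.

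The 117 members that were not tested had few reads. Of them 65 had 1 to 9 reads over all 18 libraries, 49 had 10 to 99 and 3 had 100 or more, the highest with 110, and 24 were protein coding. In 18 the reads came only from mice with 1 allele and in 25 only from mice with 2. The last carboxylesterases, Mt4 (2 reads) and Irx6 (45 reads) were in this class, and a difference in them was not detectable at this depth.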

How the data were processed

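Per the labels and the study's methods, the authors used Trimmomatic for trimming and HISAT2 2.1.0 for alignment to GRCm38, removed duplicated and low-quality mappings and counted reads per gene with Subread 1.6.2. The deposited table holds raw counts for 55421 genes and 18 libraries, with exon length as another deposited column, which was used only for RPKM. Reads came from a stranded total RNA kit, and the strand setting of the counting is not given in the sources used here. The 18 libraries were mapped to groups by label. The members, gene lists and tests were chosen with earlier results of these data known. Counts were fitted with edgeR 4.0.16 (R 4.3.3) in 1 quasi-likelihood model with 4 groups after filterByExpr and TMM scaling. DESeq2 1.42.0, the tool of the study, was an alternative. CPM uses TMM-scaled library sizes. Genes were named by rule: Csnk2a2, called members, the 10 tested members nearest to it, members whose groups did not overlap, the 10 largest log2 fold changes with unadjusted p under 0.05, and up to 4 highest genes of each role list, while others were named after their values were seen. Alternatives were another scaling, tool, filter, threshold, window, model, covariate, replicate block, each library left out, and, chosen after seeing the data, 2 sets of libraries with other tissue left out, and WT and CK2a'(+/-) libraries over 2 CPM of Neurod2 left out (WT replicates 4 and 5). The fits were tested on simulated data. Labels do not say whether replicates differ in litter or dissection. Gene positions are those of the table, checked against GENCODE vM21.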

Additional observations from a re-analysis of the deposited data

Results flagged for a closer look

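Among 162 groups of 5 mice (54 named genes in WT, zQ175 and zQ175:CK2a'(+/-) mice), 9 had 1 mouse far from the other 4 on the log scale by Dixon's criterion, a number that chance alone would come close to, since it flags about 1 group in 20. Cfap20 was 42.9 CPM in WT replicate 1, against 34.6 to 36.8 CPM in the other WT mice. Mmp15 was 15.0 CPM in zQ175:CK2a'(+/-) replicate 5, against 18.3 to 19.6 CPM. Usb1 was 1.68 CPM in zQ175 replicate 2, against 4.03 to 4.42 CPM. Bean1 was 1.62 CPM in WT replicate 2, against 3.66 to 4.90 CPM. Mt3 was 74.6 CPM in zQ175:CK2a'(+/-) replicate 4, against 51.7 to 57.0 CPM. Cmtm3 was 0.901 CPM in zQ175:CK2a'(+/-) replicate 5, against 3.06 to 4.67 CPM. Ndrg4 was 731 CPM in zQ175:CK2a'(+/-) replicate 2, against 819 to 857 CPM. Pllp was 49.9 CPM in zQ175 replicate 4, against 27.5 to 31.3 CPM. Got2 was 91.6 CPM in zQ175:CK2a'(+/-) replicate 4, against 97.4 to 99.7 CPM. No tested member was higher in every mouse of one allele comparison and lower in every mouse of the other.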

How the results depend on the processing

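Between 1 and 2 alleles 3 members were called in the reported fit. DESeq2 called 5 (24 of all genes) and the fit with no filter on low counts 4, Gm45640 being the added member (20 of all genes). Only 1, 4933406B17Rik, was called with a replicate block, with Xist as a covariate, at FDR 0.05, among members that overlap no other gene, in an additive model, with either set of libraries of other tissue left out, and without WT replicates 4 and 5. Counts among members that overlap no other gene, here and below, come from the reported fit. Crnde, Lpcat2 and Fto each overlap another gene, so they could not enter those counts. Leaving out 1 library gave 1 to 3 called members between 1 and 2 alleles. The 2 called between CK2a'(+/-) and WT became 0 with the replicate block, in a fit of the 2 groups, or without WT replicates 4 and 5, 3 with DESeq2, and 1 with the Xist covariate, at FDR 0.05, without overlapping genes or without the 4 libraries high in choroid plexus markers (0 to 2 without single libraries). The 1 called between zQ175:CK2a'(+/-) and zQ175 became 2 with DESeq2 and 0 with the replicate block, at FDR 0.05, in a fit of the 2 groups or with either set of libraries left out (0 to 1 without single libraries). For the interaction, 1 was called by DESeq2 and with no filter on low counts (0 to 1 without single libraries, 1 without WT replicate 3). Groups did not overlap in 1 member among those that overlap no other gene, and in 2 to 3 without single libraries. With no filter the median absolute log2 fold change rose to 0.311. The cause was not tested. Replicate numbers did not pair the mice: 24 pairs with the same number correlated between -0.136 and 0.12.

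Some log2 fold changes that were not called changed sign. The largest were Gm21817, at -1.85 over all mice and 0.405 without WT replicates 4 and 5, and Zfp423, at -0.32 and 0.0491 without zQ175 replicate 1. Without WT replicates 4 and 5 Cyld was -0.037, Cnot1 -0.0106, Sall1 0.0338 and Dync1li2 0.00126. With the replicate block Ces5a was -0.00802, and with the Xist covariate Cx3cl1 was 0.00146. Without the libraries high in choroid plexus markers Cx3cl1 was 0.0138, Chd9 -0.0102, Aktip 0.000835 and Tent4b -0.0188, and without those highest in thalamic and cortical markers Mt3 was -0.0527 and Cyld -0.014. Without single libraries the log2 fold change ran from -0.141 to 0.225 in Ces5a, -0.0478 to 0.067 in Cx3cl1, -0.0045 to 0.0398 in Tent4b, -0.672 to 0.231 in Gm5912, -0.136 to 0.118 in Mt3, -0.0201 to 0.00905 in Dync1li2, -0.468 to 0.0491 in Zfp423, -0.00746 to 0.0603 in Chd9, -0.0211 to 0.13 in Cyld, -0.0181 to 0.0643 in Coq9 and -0.0375 to 0.00482 in Aktip. Depth limited the low members: the SE was 0.632 for Gm5912, under 1 CPM in every mouse, and 0.0457 for Dync1li2, over 200 CPM.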
